A study of Mus musculus with 7 samples.

Results

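The miR-181 family was examined through 7 mature arms: mmu-miR-181a-5p, mmu-miR-181b-5p, mmu-miR-181c-5p, mmu-miR-181d-5p, mmu-miR-181a-1-3p, mmu-miR-181a-2-3p and mmu-miR-181c-3p, named without the species prefix from here on. They were taken by name from the 1914 mature mouse miRNA rows of the deposited count tables. Small RNA had been sequenced from adult C57BL/6J mice, in 4 libraries labelled TAp73 knockout and 3 labelled wild type, and each label gives lateral ventricles with choroid plexus as the tissue. TAp73 is the transactivating form of the transcription factor p73, encoded by Trp73, and the series title places the work in the making of multiciliated brain cells. The strain, stage and tissue are shared by both genotypes. The sources used here give neither the knockout allele nor the age in weeks, and do not say whether each library came from its own animal, so p-values measure the spread between libraries. Trp73 mRNA is not measured by small RNA counts, so the genotype labels could not be checked with it.

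A miRNA is cut from a hairpin precursor into a duplex of a 5p and a 3p arm. Usually 1 arm is kept in an Argonaute protein and guides it to target mRNAs, chiefly through its seed, bases 2 to 8 from the 5′ end, while the partner arm is degraded. The miR-181 family is conserved among vertebrates and is known for setting the sensitivity of T cell receptor signalling in the thymus. In brain it is abundant in neurons and astrocytes, where its known targets include members of the Bcl-2 family of cell death regulators.

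The 4 arms of the 5p side share the seed ACAUUCA, which no other mature mouse miRNA of the 1614 matched between the count tables and the RefSeq sequence table carried. They are shown because their rows are told apart only by bases outside the seed, which is in capitals here.
miR-181a-5p: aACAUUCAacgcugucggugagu
miR-181b-5p: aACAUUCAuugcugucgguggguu
miR-181c-5p: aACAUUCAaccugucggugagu
miR-181d-5p: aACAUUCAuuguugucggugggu
Positions are counted from 1 at the 5′ end, with the base of the first-named arm first. From miR-181a-5p to miR-181b-5p the changes are A9U, C10U and A21G, and miR-181b-5p has 1 base more. From miR-181b-5p to miR-181d-5p the only substitution is C12U, and miR-181d-5p is 1 base shorter. miR-181c-5p is 1 edit away from miR-181a-5p, being 1 base shorter. The sequences are those of RefSeq on build GRCm38.p6, where all 7 arms were found.

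The 3p arms are shown because they tell the 2 miR-181a loci apart, which the shared 5p arm cannot do. The seed is again in capitals.
miR-181a-1-3p: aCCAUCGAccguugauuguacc
miR-181a-2-3p: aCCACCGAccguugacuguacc
miR-181c-3p: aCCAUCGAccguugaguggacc
From miR-181a-1-3p to miR-181a-2-3p the changes are U5C and U16C, of which the first lies in the seed. From miR-181a-1-3p to miR-181c-3p they are U16G and U19G, so that these arms share the seed CCAUCGA although their loci lie on different chromosomes. No other mature mouse miRNA of the table carried either 3p seed.

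The family is encoded by 6 hairpins in 3 pairs (build GRCm38, which is mm10, the build in the submitters' processing notes). Mir181a-1 (chr1:137966455-137966541, plus strand) and Mir181b-1 (chr1:137966639-137966718) lie 97 bases apart in an intron of the noncoding transcript Gm4258 on the same strand. In the GENCODE annotation Mir181b-1 also lies within an exon of the noncoding RNA A430106G13Rik, and Mir181a-1 overlaps it in part. Mir181a-2 (chr2:38852735-38852810, plus strand) and Mir181b-2 (chr2:38853830-38853918) lie 1019 bases apart inside an intron of Nr6a1, an orphan nuclear receptor gene, on the strand opposite to it. Mir181c (chr8:84178873-84178961, minus strand) and Mir181d (chr8:84178716-84178787) lie 85 bases apart in an intron of Nanos3, a germ cell RNA-binding protein gene, on its own strand. The miR-181a hairpins are given with both mature arms in capitals, to show the same 5p arm beside different 3p arms.
Mir181a-1: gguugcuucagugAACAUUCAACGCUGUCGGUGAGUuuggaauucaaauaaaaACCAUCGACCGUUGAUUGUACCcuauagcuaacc
Mir181a-2: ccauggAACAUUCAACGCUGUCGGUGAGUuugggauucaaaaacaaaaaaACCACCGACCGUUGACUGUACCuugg

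Levels are counts per 1000000 reads of all mouse miRNA rows (CPM). Mouse miRNA reads numbered 9233235, 7696682, 955057 and 3880664 in knockout replicates 1 to 4, and 2697778, 2211619 and 3647102 in wild type replicates 1 to 3. Knockout replicate 3 was thus the shallowest library. The choroid plexus markers listed for the tissue check (miR-204-5p, miR-204-3p and miR-211-5p) were all present, with a summed level of 2016 to 7435 CPM in knockouts and 2015 to 11789 CPM in wild types. Knockout replicate 3 and wild type replicate 2 stood apart at the low end of this sum, and the other 5 libraries had at least 4999.7 CPM. Nearly all of it is miR-204-5p, at 2006 CPM in knockout replicate 3 and 2009 CPM in wild type replicate 2. miR-204-3p and miR-211-5p lay between 1.29 and 7.33 CPM. miR-211-5p was highest in knockout replicate 3, at 7.33 CPM beside 6.85 CPM in wild type replicate 3. In that shallow knockout library 3 reads make 3.14 CPM, so this order rests on few reads. Summed markers of multiciliated cells stood at 379.0 to 746.2 CPM in knockouts and 1253 to 3578 CPM in wild types, with 4 of 4 listed arms detected. The sum is mostly miR-34c-5p, and the 4 arms did not move one way. miR-34b-5p and miR-34c-5p were lower in knockouts without overlap, while miR-449a-5p (45.0 to 189.3 CPM in knockouts, 18.5 to 28.0 CPM in wild types) and miR-449c-5p (9.42 to 21.9 CPM in knockouts, 0.741 to 3.17 CPM in wild types) were higher without overlap. Wild type replicate 3 stood apart in the summed pituitary and hypothalamus markers (miR-7a-5p and miR-375-3p), at 1234 CPM. Wild type replicates 1 and 2 had 406.6 and 348.6 CPM, and knockouts 259.7 to 553.1 CPM.

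The family made up 13.0% ± 1.47 of mouse miRNA reads over the 4 knockout libraries and 12.6% ± 0.511 over the 3 wild types (mean ± SD). Its summed level was 134651, 137896, 107855 and 138428 CPM in knockout replicates 1 to 4, against 121754, 124064 and 131537 CPM in wild type replicates 1 to 3. The groups overlapped, and knockout replicate 3 was the lowest library of all. In that library the share was 10.8%, with an exact 95% binomial interval of 10.7% to 10.8%, which covers counting error only. The difference of mean log2 levels was 0.04 ± 0.09 (difference ± SE), or 1.03-fold, without knockout replicate 3 it was 0.12, and without that library and wild type replicate 2 it was 0.11. As a sum over chosen members it was given no test.

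miR-181a-5p, the arm shared by both miR-181a loci, carried most of this total and ranked second among all mouse miRNAs in 7 of 7 libraries, after miR-127-3p. Its level was 116880.2, 123402, 95952 and 123889 CPM in knockout replicates 1 to 4, against 109145, 111166 and 115730.0 CPM in wild type replicates 1 to 3. The knockout libraries lay on both sides of the wild types. miR-127-3p exceeded it by 1.36 to 1.97 times within a library. miR-99b-5p, next in mean level, stood below it by 1.25 to 2.18 times.

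The other 3 arms of the 5p side, which carry the same seed at lower levels, followed in a fixed order. miR-181b-5p, also the joint product of a pair of loci, stood at 10761 CPM in knockout replicate 1 and 7297, 5583 and 7098 CPM in knockout replicates 2 to 4, against 5585, 6311 and 7483 CPM in wild types. miR-181c-5p had 4676, 5141, 4514 and 5273 CPM in knockouts and 5134, 4704 and 6043 CPM in wild types. miR-181d-5p, from the hairpin beside it, had 1212, 945.5, 838.7 and 978.7 CPM in knockouts and 796.2, 818.9 and 1162 CPM in wild types. The groups overlapped for each of these arms. Knockout replicate 1 was the highest library for miR-181b-5p and miR-181d-5p, and wild type replicate 3 for miR-181c-5p. The ranges of miR-181b-5p and miR-181c-5p over the libraries overlapped, although miR-181b-5p was the higher of them within 7 of 7 libraries, by 1.09 to 2.30 times. miR-181c-5p exceeded miR-181d-5p by 3.86 to 6.45 times.

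The 3p arms were much rarer. miR-181a-1-3p, the partner strand of the chromosome 1 locus, had 639.2, 678.9, 580.1 and 739.8 CPM in knockouts and 692.4, 638.4 and 640.0 CPM in wild types. miR-181c-3p had 266.5, 296.6, 262.8 and 311.3 CPM in knockouts and 291.4, 282.6 and 315.3 CPM in wild types. miR-181a-2-3p, the partner strand of the chromosome 2 locus, had 215.5, 135.1, 124.6 and 139.2 CPM in knockouts and 109.7, 143.8 and 163.4 CPM in wild types. The groups overlapped for each of the 3 arms, and knockout replicate 1 stood highest for miR-181a-2-3p. The arms were 22 to 24 bases long, so levels were not divided by length.

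**Figure D1:**
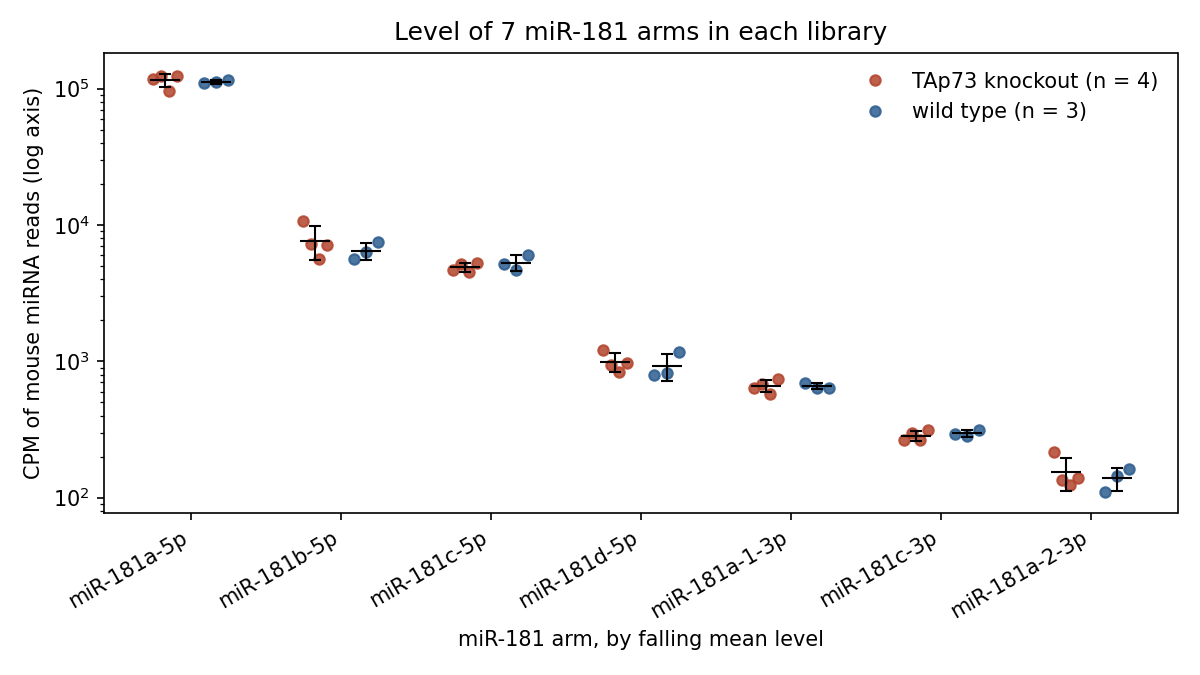
Level of each miR-181 arm in CPM of mouse miRNA reads, on a log axis, with arms by falling mean level; red points are the 4 TAp73 knockout libraries and blue points the 3 wild type libraries, with the mean as a horizontal bar and the SD as an error bar. miR-181a-5p sits at 95952 to 123889 CPM, and the knockout and wild type points overlap for each of the 7 arms.

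Within the family, miR-181a-5p held 88.7% ± 1.28 of the family's reads over the 4 knockout libraries and 89.1% ± 0.947 over the 3 wild types (mean ± SD, as for the shares that follow). miR-181b-5p took 5.90% ± 1.40 in knockouts and 5.12% ± 0.552 in wild types, and miR-181c-5p 3.80% ± 0.295 and 4.20% ± 0.402. miR-181d-5p took 0.768% ± 0.0967 in knockouts and 0.732% ± 0.131 in wild types. The 3p arms shared the small remainder, led by miR-181a-1-3p at 0.510% ± 0.0312 in knockouts and 0.523% ± 0.0418 in wild types. The group means differed by less than the larger SD for 6 of the 7 arms, the exception being miR-181c-5p, whose means differed by about 1 SD. With so few libraries this does not show that the make-up was equal. The SD of miR-181b-5p in knockouts was wide because replicate 1 stood at 7.99%, beside 5.13% to 5.29% in the others. The tables hold 3 more mouse rows of the family, outside the 7 arms, and these had 125 reads in all. miR-181b-1-3p had 69 reads, miR-181d-3p 46 and miR-181b-2-3p 10, over all libraries together.

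Use of the 2 arms differed between loci. For miR-181c there were 17.5 reads of the 5p arm for each read of the 3p arm, summed over the libraries. For miR-181a the 5p arm outnumbered both 3p arms together by 142.2 to 1, for miR-181d by 679.7 to 1 (46 reads of the 3p arm) and for miR-181b by 3098 to 1 (79 reads of the 3p arms). The 3p arm made up 5.48% ± 0.0767 of miR-181c reads over the 4 knockouts and 5.33% ± 0.356 over the 3 wild types (mean ± SD). The corresponding share of miR-181a was 0.704% ± 0.0341 in knockouts and 0.706% ± 0.0210 in wild types. The 2 ranges over all libraries, 4.96% to 5.67% for miR-181c and 0.655% to 0.730% for miR-181a, were far apart.

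Between the 2 miR-181a loci, most 3p reads came from chromosome 1. miR-181a-1-3p made up 74.8%, 83.4%, 82.3% and 84.2% of the 3p reads of both loci in knockouts, against 86.3%, 81.6% and 79.7% in wild types. Knockout replicate 1 was the lowest. The split of miR-181a-5p itself between the loci cannot be read from the tables, because both loci give the same sequence.

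The genotypes were compared arm by arm with edgeR's quasi-likelihood test, fitted on all mouse miRNA rows and adjusted by the Benjamini-Hochberg method over the 534 that passed the count filter. All 7 arms passed that filter, and none was called: 0 of 7 in either direction, where 1.12% of all tested miRNAs were called. None of the 7 had an unadjusted p under 0.05, against 12.9% of all tested. DESeq2 also called 0 of the 7 and put 0 below an unadjusted p of 0.05. Over all miRNAs DESeq2 called 14 of 534, and it left 94 without an adjusted p. Groups that did not overlap were seen for 0 of the 7 arms and for 11.8% of all tested miRNAs. The median log2 fold change of the 7 arms was 0.12, with 6 of 7 above 0, beside -0.02 and 252 of 534 for all tested miRNAs. These values depend on the TMM scaling used in the test. With library totals alone the median of all tested miRNAs was -0.10. miR-181a-5p then stood at 0.04, and miR-181c-3p (-0.06) joined miR-181c-5p (-0.11) below 0. The arms of 1 hairpin, and rows of near-identical sequence, are not independent of each other.

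miR-181b-5p had the largest estimate, with a mean of 7685 ± 2189 CPM over the 4 knockouts and 6459.9 ± 957.6 CPM over the 3 wild types (± SD). Its log2 fold change was 0.33 ± 0.20 (± SE), a 1.26-fold difference whose 95% interval ran from 0.932 to 1.70 (edgeR adjusted p = 0.53). Without knockout replicate 1 the estimate was 0.12 (edgeR adjusted p = 0.86), and without each other library it was 0.23 to 0.46. miR-181a-2-3p came next at 0.24 ± 0.22, with a fold interval of 0.844 to 1.65 (edgeR adjusted p = 0.68), and stood at 0.01 without knockout replicate 1 and 0.08 without wild type replicate 1. miR-181d-5p was at 0.19 ± 0.17 (fold interval 0.885 to 1.47, edgeR adjusted p = 0.67), and stood at 0.06 without knockout replicate 1 and, with wild type replicates 1, 2 or 3 left out in turn, at 0.08, 0.12 or 0.35. The estimates of these 3 arms thus depended on single libraries of both genotypes.

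The other 4 arms lay closer to 0 and had narrower intervals. miR-181a-5p was at 0.12 ± 0.11, which bounds its fold difference to 0.914 to 1.29 (edgeR adjusted p = 0.70). miR-181a-1-3p was at 0.08 ± 0.13 (fold interval 0.867 to 1.29, edgeR adjusted p = 0.80). Single libraries moved these estimates too. That of miR-181a-5p was 0.06 without knockout replicate 4, 0.07 without knockout replicate 2 and 0.19 without knockout replicate 3. That of miR-181a-1-3p was 0.01 without knockout replicate 4, 0.04 without wild type replicate 3 and 0.14 without knockout replicate 3. At the Mir181c locus, miR-181c-5p was at -0.03 ± 0.12 (fold interval 0.817 to 1.17, edgeR adjusted p = 0.92) and miR-181c-3p at 0.02 ± 0.13 (fold interval 0.826 to 1.24, edgeR adjusted p = 0.95). The sign of miR-181c-5p turned without knockout replicate 3 or wild type replicate 3, and that of miR-181c-3p with library totals alone and without knockout replicate 2 or 4.

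**Figure D2:**
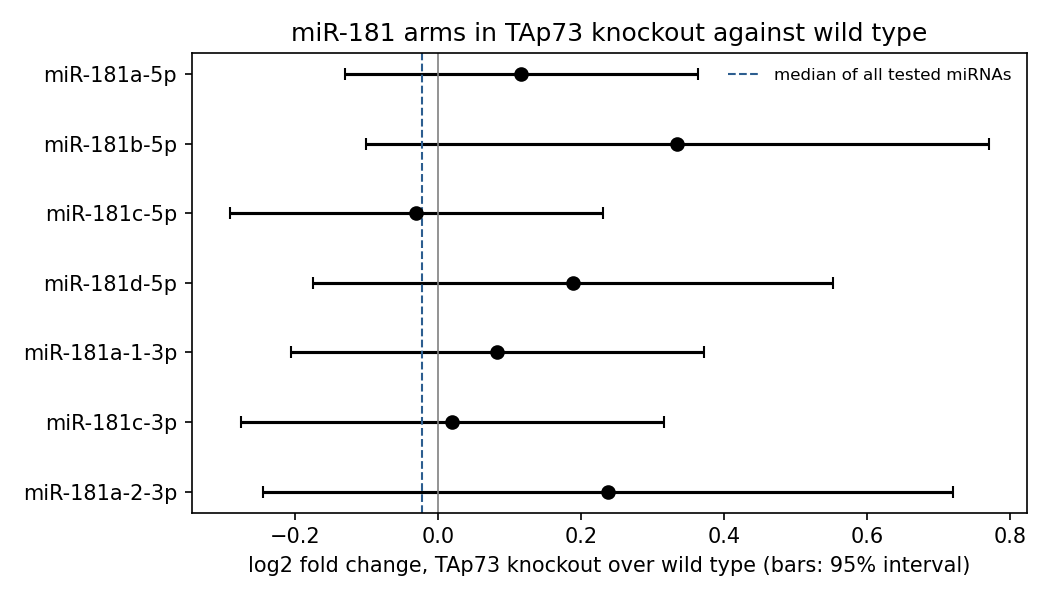
log2 fold change of each miR-181 arm, TAp73 knockout over wild type, from edgeR, with bars for the 95% interval; the grey line marks 0 and the dashed line the median of the 534 tested miRNAs. Each of the 7 intervals includes 0; the point of miR-181b-5p lies farthest from it at 0.33, and the signs of miR-181c-5p and miR-181c-3p turn under other library choices or, for miR-181c-3p, with library totals alone.

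Ratios within a library need no scaling, and 5 of them were compared between the genotypes by an exact two-sided permutation test over all 35 ways to assign 4 of the 7 libraries, adjusted over the 5. The smallest p this design allows is 0.0286. After adjustment over the 5, a ratio that reached this minimum alone would not fall under 0.05. The test could thus call a ratio only where several ratios reached the minimum together. The ratio of miR-181a-5p to its 3p arms was 136.7, 151.6, 136.2 and 140.9 in knockouts and 136.1, 142.1 and 144.1 in wild types. The mean log2 ratio differed by 0.01 ± 0.04 (difference ± SE, exact permutation p = 0.914, adjusted p = 0.914). The ratio of miR-181c-5p to miR-181c-3p was 17.5, 17.3, 17.2 and 16.9 in knockouts and 17.6, 16.6 and 19.2 in wild types (log2 difference -0.04 ± 0.06, exact permutation p = 0.514, adjusted p = 0.857). Arm use at these loci thus varied little between libraries of either genotype. The sign of the first difference turned without knockout replicate 2 (-0.029) or wild type replicate 1 (-0.019), and that of the second without wild type replicate 3 (0.010).

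The ratios between loci spread more widely. miR-181a-1-3p exceeded miR-181a-2-3p by 2.97, 5.02, 4.66 and 5.32 times in knockouts and by 6.31, 4.44 and 3.92 times in wild types (log2 difference -0.13 ± 0.28, exact permutation p = 0.686, adjusted p = 0.857). There were 9.21, 5.91, 5.82 and 5.73 reads of miR-181b-5p per 100 reads of miR-181a-5p in knockouts, against 5.12, 5.68 and 6.47 in wild types (log2 difference 0.19 ± 0.19, exact permutation p = 0.514, adjusted p = 0.857). There were 25.9, 18.4, 18.6 and 18.6 reads of miR-181d-5p per 100 reads of miR-181c-5p in knockouts, against 15.5, 17.4 and 19.2 in wild types (log2 difference 0.22 ± 0.15, exact permutation p = 0.286, adjusted p = 0.857). In each of these 3 ratios knockout replicate 1 stood apart from the other 3 knockouts, which lay within the wild type range. Without it the differences were 0.06, 0.02 and 0.10 on the log2 scale, so that the first changed sign, as it also did without wild type replicate 1 (0.07).

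**Figure D3:**
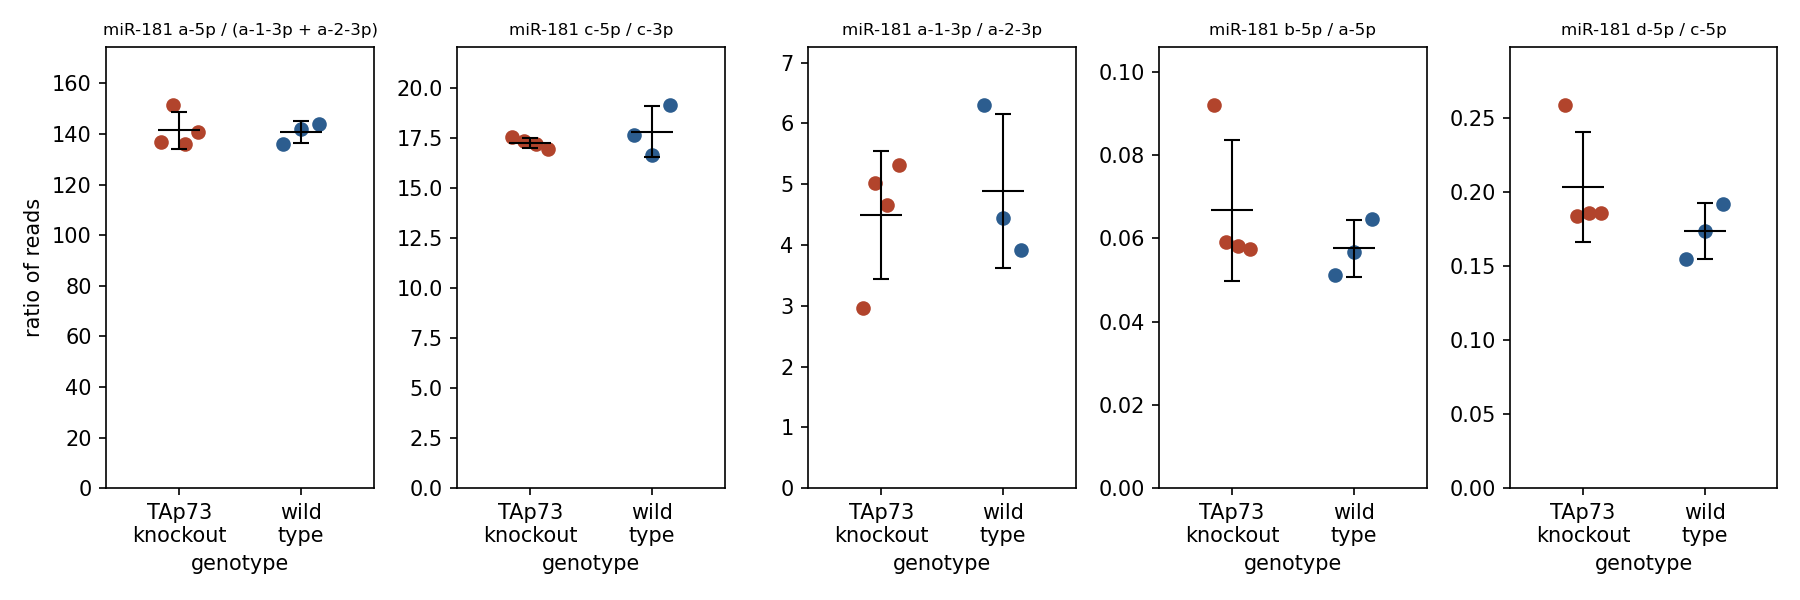
Ratios of reads between miR-181 arms in each library, one ratio per panel on a linear axis from 0, with TAp73 knockouts in red, wild types in blue, the mean as a horizontal bar and the SD as an error bar. Arm ratios of miR-181a and miR-181c are tight, while in the 3 ratios between loci 1 knockout library stands apart, at 2.97 for miR-181a-1-3p over miR-181a-2-3p and 0.0921 for miR-181b-5p over miR-181a-5p.

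Across the 7 libraries, miR-181a-5p was among the steadier miRNAs: its log2 level had an SD of 0.13, against a median of 0.22 over the 201 miRNAs with a mean of at least 100 CPM and reads in each library, and 24 of these had a smaller SD. miR-181c-3p and miR-181a-1-3p were steadier still, at 0.10 and 0.11, and miR-181c-5p was at 0.14. miR-181d-5p had an SD of 0.24, miR-181a-2-3p 0.31 and miR-181b-5p 0.32. From the lowest to the highest library miR-181b-5p spanned 1.93-fold and miR-181c-3p 1.20-fold.

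Likeness between arms was measured as the root mean square difference of their log2 levels, each centred on its own mean over the 7 libraries. The closest pair was the arms of Mir181c, miR-181c-5p and miR-181c-3p, at 0.061, followed by miR-181a-5p and miR-181a-1-3p at 0.076. miR-181a-2-3p was nearest to miR-181b-5p, at 0.105, and both lay 0.144 from miR-181d-5p. The widest gap was between the 3p arms of the miR-181a loci, at 0.322. Without knockout replicate 1, miR-181b-5p lay 0.099 from miR-181a-5p, against 0.253 with it, while the miR-181a 3p arms still stood farthest apart at 0.215. The Mir181c arms then stayed closest, at 0.065, but miR-181a-5p lay nearer to miR-181c-3p (0.068) than to miR-181a-1-3p (0.073). These distances describe 7 libraries that share depth and composition with every other row, and they carry no test.

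**Figure D4:**
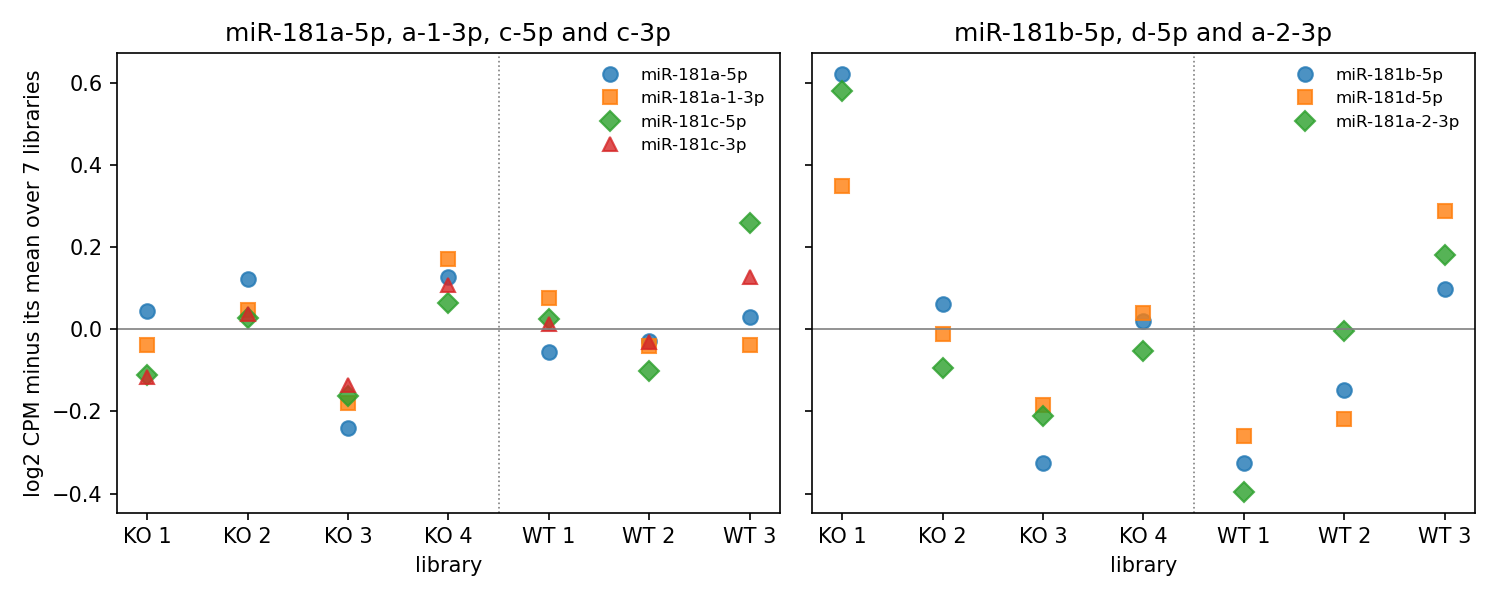
log2 CPM of each miR-181 arm minus its mean over the 7 libraries, for knockout (KO) replicates 1 to 4 and wild type (WT) replicates 1 to 3, with the 7 arms divided over the panels after their values were seen. The points of miR-181a-5p, miR-181a-1-3p, miR-181c-5p and miR-181c-3p stay between -0.24 and 0.26, while miR-181b-5p, miR-181a-2-3p and miR-181d-5p reach 0.62, 0.58 and 0.35 in knockout replicate 1.

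Outside the family, the 5 miRNAs nearest to miR-181a-5p by the same measure were taken from 194 candidates with a mean of at least 100 CPM. miR-25-3p was nearest, at 0.035 and a level of 574.9 ± 39.0 CPM (SD, n = 7). It was followed by miR-126a-3p at 0.068, miR-27b-3p at 0.075, miR-30d-5p at 0.096 and miR-103-3p at 0.111. The median candidate was at 0.249. The first 3 of these lay closer to miR-181a-5p than any other arm of its own family did, the nearest being miR-181a-1-3p at 0.076. In turn miR-181a-1-3p and miR-181c-3p (0.091) lay closer than miR-30d-5p and miR-103-3p did. The candidates outside the family far outnumbered its arms.

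The summed markers of neurons, and those of neural progenitors and glia, lay apart between the groups, whereas the family total overlapped. Summed oligodendrocyte markers overlapped, at 356.0 to 517.4 CPM in knockouts and 387.0 to 680.3 CPM in wild types, with 1 of 3 listed arms at 0 reads. The sum of 3 neuronal markers was 25404 to 28407 CPM in knockouts and 14111 to 24934 CPM in wild types. Of these, miR-128-3p alone had groups that did not overlap, at 17802 to 19444 CPM in knockouts and 8795 to 16667 CPM in wild types, and miR-124-3p and miR-129-5p overlapped. The sum of 3 markers of neural progenitors and glia (miR-9-5p, miR-9-3p and miR-92b-3p) was 35760.2 to 41685 CPM in knockouts and 28586 to 34833 CPM in wild types, but each of the 3 overlapped on its own. Leukocyte and microglia markers, of interest because the family is known from lymphocytes, summed over 4 arms to 585.2 to 782.2 CPM in knockouts and 530.8 to 595.3 CPM in wild types, which overlap. Among them miR-142a-5p alone did not overlap, at 245.2 to 277.5 CPM in knockouts and 211.7 to 242.4 CPM in wild types. As a background to these single markers, groups without overlap were seen for 11.8% of all tested miRNAs. The part of these cell types in the miR-181 levels was not tested, and in bulk tissue fewer cells of a type and less RNA per cell cannot be told apart.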

How the data were processed

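The tables deposited by the authors hold raw read counts for each named small RNA, not normalized, as the values show, with 1 table per library. Library preparation followed the TruSeq small RNA protocol, per the labels' protocols. bcl2fastq 2.17.1.14, DESeq2 and build mm10 stand in the submitters' processing notes without their roles. The sources used here name neither an aligner nor a counting tool. How reads matching several near-identical rows were split is unknown, so levels of single miR-181 arms are less certain than the family total. Adapter ligation also favours some end sequences, which affects comparisons between arms more than comparisons between libraries. The 5 closing lines of each table hold 0 reads and were left out. Of 83 miR-181 rows of other species, 1 had reads, 4 in all.

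CPM were taken over all mouse miRNA reads. The test was edgeR 4.0.16 in R 4.3.3 (TMM scaling, filterByExpr by group with minimum count 10 and minimum total 15, robust quasi-likelihood, Benjamini-Hochberg threshold 0.05), checked on simulated counts. The median log2 fold change of all tested miRNAs was -0.02 with TMM and -0.10 with library totals alone. Ratios had 0.5 reads added to each count in the test. Alternatives were DESeq2 1.42.0, other scalings, filters, estimation and rows, a pseudocount of 1 read, and leaving out each library. Named are the 7 arms, other mouse miR-181 rows, the 5 miRNAs nearest in pattern, neighbours in rank, and the listed cell type markers. The members and lists were chosen with earlier results of these data known. No batch is given. Reads carry no molecular identifiers, so intervals of shares cover counting error only.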

Additional observations from a re-analysis of the deposited data

Results flagged for a closer look

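Among the 4 knockout libraries, 20 values of the family were examined for a library far from the rest (7 levels, 7 shares, the total and 5 ratios), and 4 met Dixon's limit, which chance passes about 1 time in 20 for independent values. These values share reads and are not independent. The family total of knockout replicate 3 was 107855 CPM, set apart from the range of the other 3 knockouts (134651 to 138428 CPM) by 0.889 of the whole spread on the log2 scale. The share of miR-181b-5p in the family was 7.99% in knockout replicate 1, beside 5.13% to 5.29% in the rest, and the gap was 0.943 of the spread. The log2 ratio of miR-181b-5p to miR-181a-5p had a gap of 0.933 in the same library. That of miR-181d-5p to miR-181c-5p had a gap of 0.969, with 25.9 reads per 100 there and 18.4 to 18.6 in the rest. Over the 201 miRNAs with a mean of at least 100 CPM, the same examination of log2 levels marked a knockout library for 18 (8.96%), while it marked none of the 7 arm levels. Knockout replicates 1 and 3 were each high for 5 of these miRNAs, and low for 2 and 1. The 3 wild type libraries were too few to examine.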

How the results depend on the processing

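None of the 7 arms was called in any of the 16 alternatives for the edgeR comparison, where the smallest adjusted p was 0.28 and the count of called arms stayed at 0. Calls were few over all tested miRNAs too. Their share was smallest without wild type replicate 1 (3 of 543) and largest without knockout replicate 3 and wild type replicate 2 (19 of 538). In edgeR's quasi-likelihood test, miR-181b-5p had an unadjusted p of 0.013 with no filter, 0.029 without knockout replicate 3 and 0.046 with knockout replicate 3 and wild type replicate 2 both left out, the last chosen once the data had been seen. The sign of miR-181c-3p turned with library totals alone (log2 fold change -0.059) and without knockout replicate 2 (-0.012) or 4 (-0.043), and with single libraries left out it ran from -0.043 to 0.053. That of miR-181c-5p turned without knockout replicate 3 (0.0066) or wild type replicate 3 (0.042), and it ran from -0.087 to 0.042. The cause was not tested. The difference in the family total lay between 0.0038 and 0.12 over all alternatives, and was 0.11 with TMM scaling.

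With single libraries left out, the log2 difference ran from -0.029 to 0.023 for miR-181a-5p over its 3p arms, from -0.27 to 0.071 for miR-181a-1-3p over miR-181a-2-3p, from -0.092 to 0.010 for miR-181c-5p over miR-181c-3p, from 0.023 to 0.28 for miR-181b-5p over miR-181a-5p and from 0.096 to 0.29 for miR-181d-5p over miR-181c-5p. In those smaller designs the permutation test cannot pass even before adjustment, since its smallest p is 0.10 or 0.067. Depth limits miR-181a-2-3p most, with 119 reads in knockout replicate 3. No paired analysis was possible because the replicate numbers were assigned in accession order within each genotype, and no label ties a library of 1 genotype to a library of the other.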
